A study of Mus musculus with 16 samples.

Results

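The interstitial and basement membrane matrix of the pancreas, and the stellate cells, fibroblasts and pericytes that make most of it, were followed through 47 genes, listed by symbol, of the 24019 genes in the count table. The set holds 5 fibrillar collagen genes, 4 genes of collagen VI and fibril-associated collagen, 10 basement membrane genes, 12 genes of proteoglycans, elastic fibres and matricellular proteins, 5 genes of a collagen chaperone, a protease and inhibitors, 3 genes of insulin-like growth factor (IGF) binding proteins, and 8 genes of pericytes, smooth muscle and stellate cells. Of the 47 genes, 34 had enough counts to be tested, and the other 13 are given as totals further on.

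Fibrillar collagens I, III and V form the tensile fibres of interstitial tissue, whereas collagen IV, laminins, nidogen and perlecan form the sheets under epithelium, endothelium and around acini. Quiescent pancreatic stellate cells store vitamin A droplets near the acini. On activation during injury they express smooth muscle actin and deposit collagen, and matrix is continually turned over by metalloproteases and their inhibitors. ADAM17 is a membrane protease that releases the ectodomains of cytokines, growth factors and receptors from the cell surface. TIMP3, the product of one of the 47 genes, is known to inhibit it.

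Pancreas was collected from 16 mice in 4 groups of 4, with 1 library per mouse. Adam17ex/ex mice (Adam17ex below), homozygous for a hypomorphic Adam17 allele carried in all cells, received cerulein or phosphate-buffered saline (PBS), and their C57BL/6J wild-type (WT) littermates received the same 2 treatments. Cerulein, a cholecystokinin analogue that overstimulates acinar cells and models acute pancreatitis, was given into the peritoneum at 50 µg/kg in 7 hourly injections, and tissue was taken 1 h after the last one from mice 6 to 8 weeks old. Males numbered 2 in the Adam17ex cerulein, 2 in the Adam17ex PBS, 1 in the WT cerulein and 0 in the WT PBS group.

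Each count is a unique molecular identifier (UMI), read mostly from the 3′ end of a polyadenylated transcript. Libraries held 455547 to 1476159 UMIs. The lowest 3 totals, 492878, 475952 and 455547, belonged to Adam17ex PBS replicates 1 to 3, where a ribosomal RNA gene took 7.84% to 9.02% of UMIs, against 2.02% to 5.04% in the other 13 libraries. Levels below are CPM, the counts of each library scaled to a common total after trimmed mean of M values (TMM) normalization, where 1 UMI was worth 0.681 to 2.60 CPM, and values of single libraries are in the order of replicates 1 to 4. Digestive enzyme genes, the markers of the labelled tissue, summed to group means of 285307 CPM or more. Adam17 itself averaged 4.07 ± 1.75 CPM in Adam17ex PBS and 10.3 ± 3.78 CPM in WT PBS libraries, with ranges that overlapped (up to 6.03 against 5.25 or more), and the log2 difference was -1.21 ± 0.49 (± SE here and below; edgeR adjusted p = 0.210). It averaged 3.30 ± 0.71 CPM in Adam17ex cerulein and 14.3 ± 3.85 CPM in WT cerulein libraries (SD, n = 4 each), and the difference on the log2 scale was -2.05 ± 0.40 (edgeR adjusted p = 0.00138). Reads from the 3′ end need not cover the altered part of the allele.

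The promoters of 3 members whose values recur below are shown, with their most stable calls kept in 27 of 27 alternative settings for Serpinh1 (cerulein in WT), 26 of 27 for Igfbp5 (cerulein in WT) and 26 of 27 for Timp3 (cerulein in Adam17ex). The Timp3 call for genotype under PBS was kept in 15 of 27. Serpinh1 encodes the collagen chaperone HSP47, Igfbp5 an IGF binding protein and Timp3 the inhibitor named above. The sequences are RefSeq windows on build GRCm38.p6, 5′ to 3′ on the strand of the gene, from up to 250 bases before the RefSeq start and without bases inside GENCODE exons. Capitals mark a GC box (GGGCGG on either strand).
Serpinh1, chr7:99353240-99353489, minus strand: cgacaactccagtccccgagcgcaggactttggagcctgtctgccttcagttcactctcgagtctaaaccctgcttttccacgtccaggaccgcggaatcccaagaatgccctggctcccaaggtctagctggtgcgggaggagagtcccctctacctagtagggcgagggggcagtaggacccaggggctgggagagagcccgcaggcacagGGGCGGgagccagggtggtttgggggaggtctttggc
Igfbp5, chr1:72874885-72875115, minus strand: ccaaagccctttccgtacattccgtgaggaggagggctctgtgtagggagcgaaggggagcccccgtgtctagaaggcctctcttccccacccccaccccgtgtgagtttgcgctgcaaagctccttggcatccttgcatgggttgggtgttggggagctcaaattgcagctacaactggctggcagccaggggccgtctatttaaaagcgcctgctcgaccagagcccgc
Timp3, chr10:86300162-86300371, plus strand: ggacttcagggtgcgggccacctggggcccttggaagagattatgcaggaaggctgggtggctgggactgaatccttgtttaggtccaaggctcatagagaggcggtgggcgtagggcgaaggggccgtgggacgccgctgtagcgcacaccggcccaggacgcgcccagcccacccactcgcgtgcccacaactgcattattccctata

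Windows of 250 bases before the start were present for 32 of the 47 members. A GC box, a site bound by Sp1 family factors, was found in 17 of the 32 windows (53.1%), against 32.7% of 32851 windows of all genes. Members were taken with a single window each, whereas the 32851 windows were not reduced to a single window per gene. The shares here are thus not like for like, and their differences were not tested. The heat shock element GAANNTTC was found in 6.25% of the members' windows and 6.69% of all, the AP-1 site TGANTCA in 3.12% and 6.75%, and the TATA box TATAAA in 9.38% and 12.4%. Both strands were searched. The windows of Igfbp5 and Fstl1 are the 2 with a heat shock element, and that of Timp3 is among the 17 with a GC box, but these matches of Igfbp5 and Timp3 lie in bases left out of the stretches printed above. A match describes the letters of a window and not the binding of a factor.

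After cerulein 1 of the 34 tested members was higher and 17 were lower in Adam17ex mice, and 5 were higher and 4 lower in WT mice. In Adam17ex mice relative to WT, 9 were higher and 0 lower under PBS, and 2 were higher and 0 lower under cerulein. The response itself was called different between the genotypes for 4 of the 34 members, all more negative in Adam17ex. Counts were taken at an edgeR adjusted p under 0.05, over 8236 genes. Without the 3 shallow Adam17ex PBS libraries, 1 member was higher and 2 were lower after cerulein in Adam17ex mice, 0 were higher in Adam17ex under PBS, and 0 differed in response. Among the members called with all libraries, the log2 fold changes in that fit had medians of -1.03 for cerulein in Adam17ex (18 members, of which Thbs1 and Dcn were called), 1.35 for genotype under PBS (9 members) and -1.27 for the interaction (4 members). Values of genes outside the 47 are given with all libraries only. In bulk tissue, fewer cells of a type and less RNA per cell cannot be told apart.

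Those counts stand beside the shares over all 8236 genes. For cerulein in Adam17ex mice 30.3% of all genes were called, 14.1% higher and 16.2% lower, against 2.94% and 50% of the members. For cerulein in WT mice 41.1% were called, 19.8% higher and 21.3% lower, against 14.7% and 11.8% of the members, and the members' shares lay below the background. For genotype under PBS only 1.36% of all genes were called and 0.631% were higher, against 26.5% of the members, whereas under cerulein 9.7% of all genes were called and 5.85% were higher, against 5.88% of the members, a share near the background. For the interaction 6.02% were called and 2.27% were lower, against 11.8% of the members, and 3.75% were higher, against 0 members. The median log2 fold change over the members was -0.82 for cerulein in Adam17ex, -0.15 for cerulein in WT, 1.05 for genotype under PBS, 0.45 for genotype under cerulein and -0.60 for the interaction, whereas all tested genes had medians between -0.04 and 0.03. Groups of 4 did not overlap for 6 of the 34 members for cerulein in WT and 8 in Adam17ex mice, against 39.3% and 25.7% of all genes. For genotype they did not overlap for 9 members under cerulein and 10 under PBS, against 17.6% and 10.4% of all genes. Cerulein and genotype comparisons share libraries and are not independent of each other, and differences between classes of members were not tested.

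**Figure D1:**
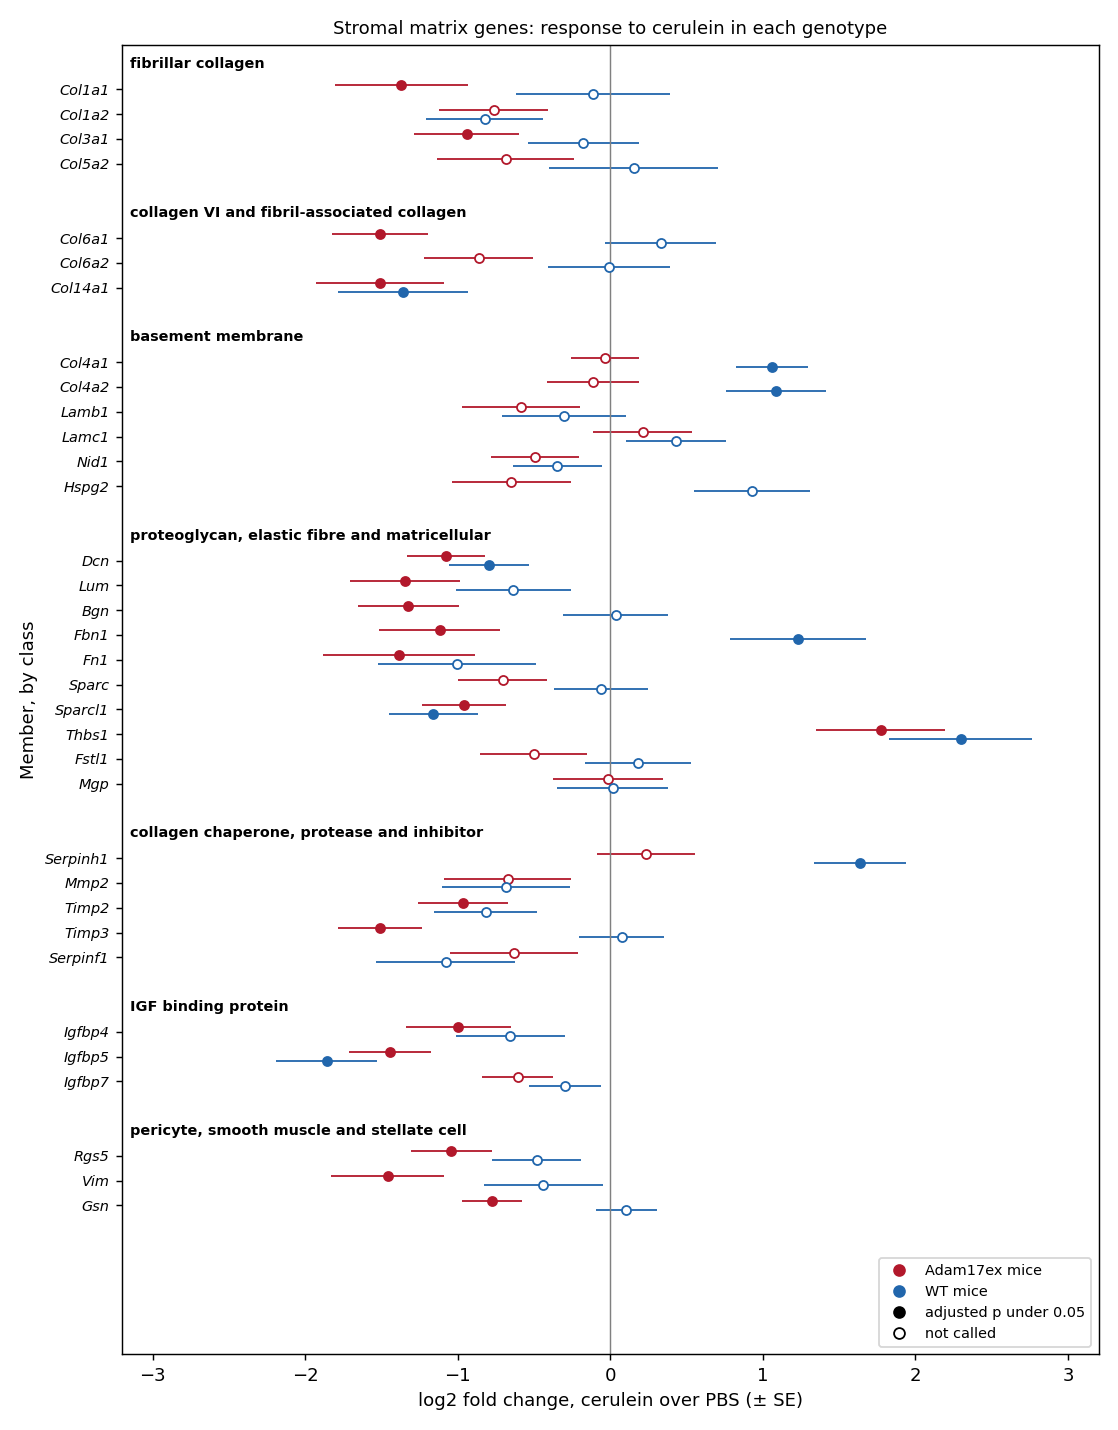
Log2 fold change of cerulein over PBS (± SE, edgeR) for the 34 tested members, by class, in Adam17ex mice (red) and WT mice (blue); filled points passed an adjusted p of 0.05. In Adam17ex mice 31 of 34 points lie below 0, whereas in WT mice 14 lie above 0 and 20 below.

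No fibrillar collagen gene was called higher after cerulein. Of 4 tested, 2 were called lower in Adam17ex mice and 0 in WT mice, with class medians of -0.85 and -0.15. The difference between these responses was called for 0 of 4, with 1 positive and 3 negative. Of all genes 16.2% were called lower in Adam17ex and 21.3% in WT mice. Col3a1 (chromosome 1, 45311538 to 45349706, plus strand), the chain of collagen III, had 65.4, 59.5, 87.6 and 83.8 CPM in Adam17ex cerulein libraries, against 85.8, 67.1, 245 and 161 CPM in Adam17ex PBS libraries. The groups overlapped, and replicate 3 of the PBS group was the highest. Its log2 fold change was -0.94 ± 0.35 (edgeR adjusted p = 0.0422), and -0.18 ± 0.36 in WT mice (edgeR adjusted p = 0.727), where cerulein libraries had 40.7, 56.5, 60.2 and 46.3 CPM and PBS libraries 49.4, 108, 27.3 and 36.8 CPM. Without Adam17ex PBS replicate 3 the Adam17ex value of Col3a1 was -0.46 (edgeR adjusted p = 0.342), and its call was kept in 12 of 27 alternative settings.

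Col1a1 and Col1a2 encode the 2 chains of collagen I. Col1a1 (chromosome 11, 94936224 to 94953042, plus strand) had 17.9, 18.7, 26.4 and 14.99 CPM in Adam17ex cerulein libraries, against 15.6, 38.7, 104 and 38.4 CPM in Adam17ex PBS libraries. In WT mice it had 15.4, 21.0, 12.9 and 6.61 CPM under cerulein, against 8.23, 28.3, 4.20 and 8.58 CPM under PBS. It fell in Adam17ex mice, at -1.37 ± 0.44 on the log2 scale (edgeR adjusted p = 0.0203), and was at -0.11 ± 0.51 in WT mice (edgeR adjusted p = 0.879). Without Adam17ex PBS replicate 3 the Adam17ex value of Col1a1 was -0.71 (edgeR adjusted p = 0.264). Col1a2 gave close values in both genotypes, -0.77 ± 0.36 in Adam17ex and -0.82 ± 0.39 in WT mice, and passed the test in neither (edgeR adjusted p = 0.111 and 0.0916).

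Relative to WT, all 4 fibrillar genes were positive in Adam17ex mice under both treatments, with class medians of 1.45 under PBS and 0.74 under cerulein, and none was called. Col5a2 (chromosome 1, 45374321 to 45503282, minus strand), a chain of collagen V that regulates fibre diameter, had 20.8, 12.9, 24.1 and 15.2 CPM in Adam17ex PBS libraries, against 7.05, 6.70, 5.25 and 0 CPM in WT PBS libraries. These groups did not overlap, but the log2 fold change of 1.79 ± 0.55 did not pass (edgeR adjusted p = 0.0921). Under cerulein Col5a2 had 13.7, 8.89, 13.2 and 9.54 CPM in Adam17ex and 3.62, 7.75, 9.31 and 1.65 CPM in WT libraries.

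Collagen VI forms beaded microfilaments that link cells to the interstitial fibres, and the genes of 2 of its chains were among the 3 members with the highest genotype difference under PBS. Col6a1 (chromosome 10, 76708792 to 76726168, minus strand) had 44.2, 23.2, 44.2 and 31.3 CPM in Adam17ex PBS libraries, against 7.05, 9.68, 8.40 and 9.80 CPM in WT PBS libraries. Every Adam17ex library lay above every WT library, and the log2 fold change was 2.08 ± 0.36, a 4.24-fold difference (edgeR adjusted p = 0.00643). Under cerulein Col6a1 had 15.8, 8.00, 7.20 and 17.7 CPM in Adam17ex and 9.04, 12.2, 14.3 and 7.44 CPM in WT libraries, with overlapping groups and a difference of 0.24 ± 0.33 (edgeR adjusted p = 0.713).

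With cerulein Col6a1 fell in Adam17ex mice, at -1.51 ± 0.32 on the log2 scale (edgeR adjusted p = 0.000973), and was at 0.33 ± 0.36 in WT mice (edgeR adjusted p = 0.493). The difference between the 2 responses was itself called, at -1.84 ± 0.48 (edgeR adjusted p = 0.0253). Col6a2, the neighbouring gene for a second chain, was higher in Adam17ex mice under PBS by 1.88 ± 0.41 (edgeR adjusted p = 0.0298), with 7.80, 33.6, 26.1 and 32.3 CPM in Adam17ex and 12.9, 8.94, 5.25 and 3.68 CPM in WT libraries. Replicate 1 of Adam17ex lay within the WT range. Under cerulein the Col6a2 groups did not overlap, at 13.7, 12.4, 18.0 and 12.3 CPM in Adam17ex and 4.52, 6.65, 10.7 and 6.61 CPM in WT libraries, but 1.03 ± 0.39 did not pass (edgeR adjusted p = 0.103).

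Col14a1 (chromosome 15, 55307750 to 55520803, plus strand), whose product decorates the surface of collagen I fibres, fell with cerulein in both genotypes. It had 9.49, 8.00, 16.8 and 8.17 CPM in Adam17ex cerulein libraries, against 13, 38.7, 40.2 and 26.3 CPM in Adam17ex PBS libraries. WT libraries had 3.62, 6.65, 8.596 and 9.92 CPM under cerulein, against 30.6, 26.1, 9.45 and 9.80 CPM under PBS. The log2 fold changes were -1.51 ± 0.42 in Adam17ex (edgeR adjusted p = 0.00893) and -1.36 ± 0.43 in WT mice (edgeR adjusted p = 0.0136). Among WT PBS libraries replicates 1 and 2 were high, and replicates 3 and 4 lay within the cerulein range. The WT call was kept in 21 of 26 alternative settings, with values of Col14a1 between -1.53 and -0.31.

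Of 6 tested basement membrane genes 2 rose with cerulein in WT mice, with a class median of 0.68. In Adam17ex mice 0 of 6 were called and the median was -0.31. Over all genes 19.8% were called higher in WT mice, and 30.3% were called in either direction in Adam17ex mice. Col4a1 (chromosome 8, 11198423 to 11312826, minus strand) and Col4a2 (chromosome 8, 11312805 to 11449287, plus strand) encode the 2 chains of the ubiquitous collagen IV molecule and start head to head, overlapping by 22 bases. Col4a1 had 71.7, 61.3, 46.8 and 48.4 CPM in Adam17ex cerulein, 62.4, 49.1, 60.3 and 60.6 CPM in Adam17ex PBS, 46.1, 48.7, 48.7 and 52.1 CPM in WT cerulein, and 35.3, 26.8, 15.7 and 15.9 CPM in WT PBS libraries. The WT PBS group lay below all other libraries, while the other 3 groups overlapped.

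Col4a1 thus rose with cerulein in WT mice by 1.06 ± 0.23 on the log2 scale (edgeR adjusted p = 0.000903) and stood at -0.04 ± 0.22 in Adam17ex mice (edgeR adjusted p = 0.917). It was higher in Adam17ex mice under PBS by 1.32 ± 0.26 (edgeR adjusted p = 0.0150), and the interaction was called at -1.10 ± 0.32 (edgeR adjusted p = 0.0454). Col4a2 gave values close to those of its partner, at 1.09 ± 0.33 for cerulein in WT mice (edgeR adjusted p = 0.0106), -0.12 ± 0.30 for cerulein in Adam17ex mice (edgeR adjusted p = 0.803) and 1.55 ± 0.36 for genotype under PBS (edgeR adjusted p = 0.0385). Its interaction of -1.20 ± 0.45 did not pass (edgeR adjusted p = 0.112), and its call for genotype under PBS was kept in 11 of 27 alternative settings. Col4a2 had 31.6, 20.4, 22.8 and 20.4 CPM in Adam17ex cerulein, 33.8, 10.3, 26.1 and 29.3 CPM in Adam17ex PBS, 11.8, 23.3, 25.1 and 16.5 CPM in WT cerulein, and 8.23, 11.9, 8.40 and 7.35 CPM in WT PBS libraries, and replicate 2 of Adam17ex PBS fell within the WT PBS range.

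Hspg2 (chromosome 4, 137468769 to 137570630, plus strand), the gene of the heparan sulphate proteoglycan perlecan, had 16.9, 9.78, 26.4 and 14.3 CPM in Adam17ex cerulein libraries, against 18.2, 12.9, 32.1 and 33.3 CPM in Adam17ex PBS libraries. In WT mice it had 14.5, 35.4, 20.1 and 25.6 CPM under cerulein, against 22.3, 13.4, 5.25 and 9.80 CPM under PBS. Its log2 fold changes were -0.65 ± 0.39 in Adam17ex and 0.93 ± 0.38 in WT mice, and neither these nor the interaction of -1.58 ± 0.54 passed (edgeR adjusted p = 0.218, 0.0543 and 0.0863). The laminin genes Lamb1 and Lamc1 and the nidogen gene Nid1, whose products link the laminin and collagen IV networks, were called in none of the 5 comparisons and ranged from -0.58 to 0.96.

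Summed over each class, the ratio of basement membrane to fibrillar UMIs was 0.906 ± 0.256 in Adam17ex cerulein and 0.690 ± 0.234 in Adam17ex PBS libraries, and 1.33 ± 0.270 in WT cerulein and 0.879 ± 0.342 in WT PBS libraries (SD, n = 4 each). In WT mice the ratios were 1.22, 1.16, 1.21 and 1.74 under cerulein, against 1.12, 0.425, 1.17 and 0.807 under PBS. Of the WT PBS libraries, 1 had a ratio just above the lowest under cerulein, so the groups overlapped by that library. These ratios set counts of 3′ ends side by side and were not tested.

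Among matricellular and elastic fibre genes, Thbs1 (chromosome 2, 118111876 to 118127133, plus strand) was the only member called higher after cerulein in both genotypes. It encodes thrombospondin 1, which binds matrix and cells and activates latent TGF-beta. It had 28.5, 33.8, 38.4 and 34.1 CPM in Adam17ex cerulein libraries, against 7.80, 12.9, 20.1 and 3.03 CPM in Adam17ex PBS libraries. The WT libraries had 17.2, 18.8, 25.8 and 14.9 CPM under cerulein, against 1.18, 8.19, 2.10 and 1.23 CPM under PBS. In neither genotype did the groups overlap.

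The Thbs1 log2 fold changes were 1.77 ± 0.42 in Adam17ex (edgeR adjusted p = 0.00298) and 2.30 ± 0.47 in WT mice (edgeR adjusted p = 0.000420), or 3.42-fold and 4.91-fold. The difference between them, -0.52 ± 0.66, did not pass (edgeR adjusted p = 0.693), and its error leaves room for differences in either direction. Under cerulein all 4 Adam17ex libraries lay above all 4 WT libraries, with 0.73 ± 0.33, which also did not pass (edgeR adjusted p = 0.181).

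Fbn1 (chromosome 2, 125300594 to 125507993, minus strand), the gene of the microfibril protein fibrillin 1, was the member with the largest difference between the 2 responses. It had 7.38, 6.22, 3.602 and 8.17 CPM in Adam17ex cerulein libraries, against 10.4, 15.5, 14.1 and 16.2 CPM in Adam17ex PBS libraries. WT mice had 10.9, 11.1, 6.45 and 4.96 CPM under cerulein, against 2.35, 5.21, 2.10 and 3.68 CPM under PBS. The Adam17ex groups did not overlap, and the WT groups overlapped by 1 library. With only 113 UMIs in all libraries together, these levels rest on few molecules each.

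Fbn1 fell in Adam17ex mice, at -1.12 ± 0.40 (edgeR adjusted p = 0.0358) and rose in WT mice by 1.23 ± 0.45 (edgeR adjusted p = 0.0311) on the log2 scale. The interaction was -2.35 ± 0.60 (edgeR adjusted p = 0.0203). Under PBS Fbn1 was 4.17-fold higher in Adam17ex mice, at 2.06 ± 0.47 (edgeR adjusted p = 0.0331), and under cerulein the difference was -0.29 ± 0.39 (edgeR adjusted p = 0.725). Of 25 alternative settings, 11 kept the Fbn1 call for cerulein in Adam17ex, 16 that for cerulein in WT and 14 that for genotype under PBS.

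The small leucine-rich proteoglycans decorin, lumican and biglycan bind collagen fibres and regulate their assembly. Dcn (chromosome 10, 97479609 to 97518143, plus strand), the second most counted member with 2720 UMIs, fell with cerulein in both genotypes. It had 142, 165, 216 and 137 CPM in Adam17ex cerulein libraries, against 213, 274, 561 and 334 CPM in Adam17ex PBS libraries, and 80.5, 125, 125 and 99.2 CPM in WT cerulein libraries, against 239.8, 203, 112 and 173 CPM in WT PBS libraries. The log2 fold changes were -1.08 ± 0.26 in Adam17ex (edgeR adjusted p = 0.00301) and -0.79 ± 0.26 in WT mice (edgeR adjusted p = 0.0184). In each genotype 1 PBS library lay within the cerulein range. The WT call was lost in 6 of 27 alternative settings, among them without WT PBS replicate 1 or 2 or WT cerulein replicate 1 or 4, with log2 fold changes between -0.92 and -0.39. The Adam17ex call was lost without Adam17ex PBS replicate 3, at -0.67 (edgeR adjusted p = 0.0518).

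Lum and Bgn were called lower in Adam17ex mice, at -1.35 ± 0.36 and -1.32 ± 0.33 (edgeR adjusted p = 0.00693 and 0.00420). In WT mice they were at -0.64 ± 0.38 and 0.04 ± 0.34 (edgeR adjusted p = 0.187 and 0.945), and the interaction passed for neither (edgeR adjusted p = 0.465 and 0.0920). The fibronectin gene Fn1 also fell in Adam17ex mice, at -1.39 ± 0.50 (edgeR adjusted p = 0.0382), and was at -1.004 ± 0.52 in WT mice (edgeR adjusted p = 0.128). Its interaction was not called.

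Sparcl1 encodes a SPARC-like matricellular protein made by vessel-associated cells. It fell with cerulein in both genotypes, at -0.96 ± 0.27 in Adam17ex (edgeR adjusted p = 0.0107) and -1.16 ± 0.29 in WT mice (edgeR adjusted p = 0.00289). Under cerulein it averaged 29.0 ± 5.65 CPM in Adam17ex and 15.3 ± 1.79 CPM in WT libraries (SD, n = 4 each) with no overlap and a log2 difference of 0.94 ± 0.30 (edgeR adjusted p = 0.0464). That call was kept in 13 of 27 alternative settings. Sparc itself, a collagen-binding glycoprotein, was higher in Adam17ex mice under PBS, averaging 168 ± 62.2 CPM, against 66.4 ± 37.4 CPM in WT libraries (SD, n = 4 each) with no overlap and a log2 difference of 1.32 ± 0.33 (edgeR adjusted p = 0.0445). This Sparc call was kept in 12 of 27 alternative settings. Mgp, the gene of matrix Gla protein, which inhibits calcification, and Fstl1, of a follistatin-like glycoprotein, were called in none of the 5 comparisons.

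Serpinh1 (chromosome 7, 99345376 to 99353239, minus strand) encodes HSP47, which binds procollagen in the endoplasmic reticulum and is known to be induced by heat shock. It had 44.3, 61.3, 60.0 and 53.1 CPM in Adam17ex cerulein libraries, against 20.8, 43.9, 58.3 and 57.6 CPM in Adam17ex PBS libraries. In WT mice it had 63.3, 133, 94.6 and 90.1 CPM under cerulein, against 30.6, 54.4, 16.8 and 18.4 CPM under PBS. The WT cerulein group lay above every other library, and the Adam17ex groups overlapped.

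The log2 fold change of Serpinh1 was 1.64 ± 0.30 in WT mice (edgeR adjusted p = 0.000153) and 0.24 ± 0.32 in Adam17ex mice (edgeR adjusted p = 0.611). The difference between the responses, -1.40 ± 0.44, missed the threshold (edgeR adjusted p = 0.0590), as did the genotype difference of -0.72 ± 0.30 under cerulein (edgeR adjusted p = 0.130). The WT calls of Serpinh1 and Thbs1 were kept in 27 of 27 alternative settings. Among the tested collagen genes, Col1a1, Col1a2 and Col3a1 were not called in WT mice and had the negative values given above. Col4a1 and Col4a2 were called higher there, at 1.06 and 1.09, and Col14a1 lower, at -1.36. The remaining tested collagen genes were not called.

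Timp3 (chromosome 10, 86300372 to 86349506, plus strand) overlaps Syn3 on the other strand, a gene with 10 UMIs in all. It had 31.6, 29.3, 24.0 and 22.5 CPM in Adam17ex cerulein libraries, against 72.8, 90.4, 94.4 and 54.5 CPM in Adam17ex PBS libraries. Levels in WT mice were 25.3, 44.3, 43.7 and 21.5 CPM under cerulein, against 47.0, 34.3, 21.0 and 25.7 CPM under PBS. The Adam17ex PBS group stood apart from all other libraries, which overlapped with each other.

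Timp3 fell with cerulein in Adam17ex mice, at -1.51 ± 0.28 (edgeR adjusted p = 0.000291) and was at 0.07 ± 0.28 in WT mice (edgeR adjusted p = 0.853), with an interaction of -1.58 ± 0.39 (edgeR adjusted p = 0.0176). It was 2.40-fold higher in Adam17ex mice under PBS, at 1.26 ± 0.30 (edgeR adjusted p = 0.0385), and at -0.32 ± 0.28 under cerulein (edgeR adjusted p = 0.534). Timp2 (chromosome 11, 118301069 to 118355740, minus strand), which inhibits metalloproteases and also takes part in activating MMP2, had 41.1, 34.7, 55.2 and 26.6 CPM in Adam17ex cerulein libraries, against 59.8, 69.7, 108 and 63.6 CPM in Adam17ex PBS libraries. Its log2 fold changes with cerulein were close in the 2 genotypes, at -0.97 ± 0.30 in Adam17ex (edgeR adjusted p = 0.0165) and -0.82 ± 0.34 in WT mice (edgeR adjusted p = 0.0551). In WT mice Timp2 had 17.2, 23.3, 22.9 and 9.09 CPM under cerulein, against 47.0, 35.7, 14.7 and 23.3 CPM under PBS, below the Adam17ex libraries of the same treatment in each case. Those genotype differences, 1.01 ± 0.33 under cerulein and 1.16 ± 0.33 under PBS, did not pass (edgeR adjusted p = 0.0519 and 0.0728). Mmp2, the gelatinase gene, and Serpinf1, of the anti-angiogenic factor PEDF, were called in none of the 5 comparisons.

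Igfbp5 (chromosome 1, 72857932 to 72874884, minus strand), whose product binds IGF and matrix, was the member with the largest fall in WT mice and the larger of the 2 genotype differences called under cerulein. It had 21.1, 24.0, 26.4 and 12.9 CPM in Adam17ex cerulein libraries, against 59.8, 49.1, 80.4 and 40.4 CPM in Adam17ex PBS libraries. WT values were 5.43, 12.2, 6.45 and 4.96 CPM under cerulein, against 35.3, 17.9, 18.9 and 24.5 CPM under PBS. Cerulein lay below PBS in every library of both genotypes, and Adam17ex lay above WT in every library of both treatments.

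Igfbp5 fell with cerulein, at -1.44 ± 0.27 in Adam17ex (edgeR adjusted p = 0.000346) and -1.86 ± 0.33 in WT mice (edgeR adjusted p = 0.000102). The difference of 0.42 ± 0.43 between these responses did not pass (edgeR adjusted p = 0.617). Under cerulein Igfbp5 was 2.65-fold higher in Adam17ex mice, at 1.40 ± 0.34 (edgeR adjusted p = 0.00813), and under PBS the value was 0.99 ± 0.30 (edgeR adjusted p = 0.0898). Igfbp4 fell in Adam17ex mice, at -0.996 ± 0.34 (edgeR adjusted p = 0.0312) and was at -0.65 ± 0.36 in WT mice (edgeR adjusted p = 0.149). The interaction was called for 0 of the 3 IGF binding protein genes. Igfbp7, which is secreted by vessels and stroma, averaged 47.3 ± 6.32 CPM in Adam17ex cerulein and 73.1 ± 24.8 CPM in Adam17ex PBS libraries, and 34.9 ± 8.58 CPM in WT cerulein and 43.2 ± 8.24 CPM in WT PBS libraries (SD, n = 4 each), with no call in any comparison.

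**Figure D2:**
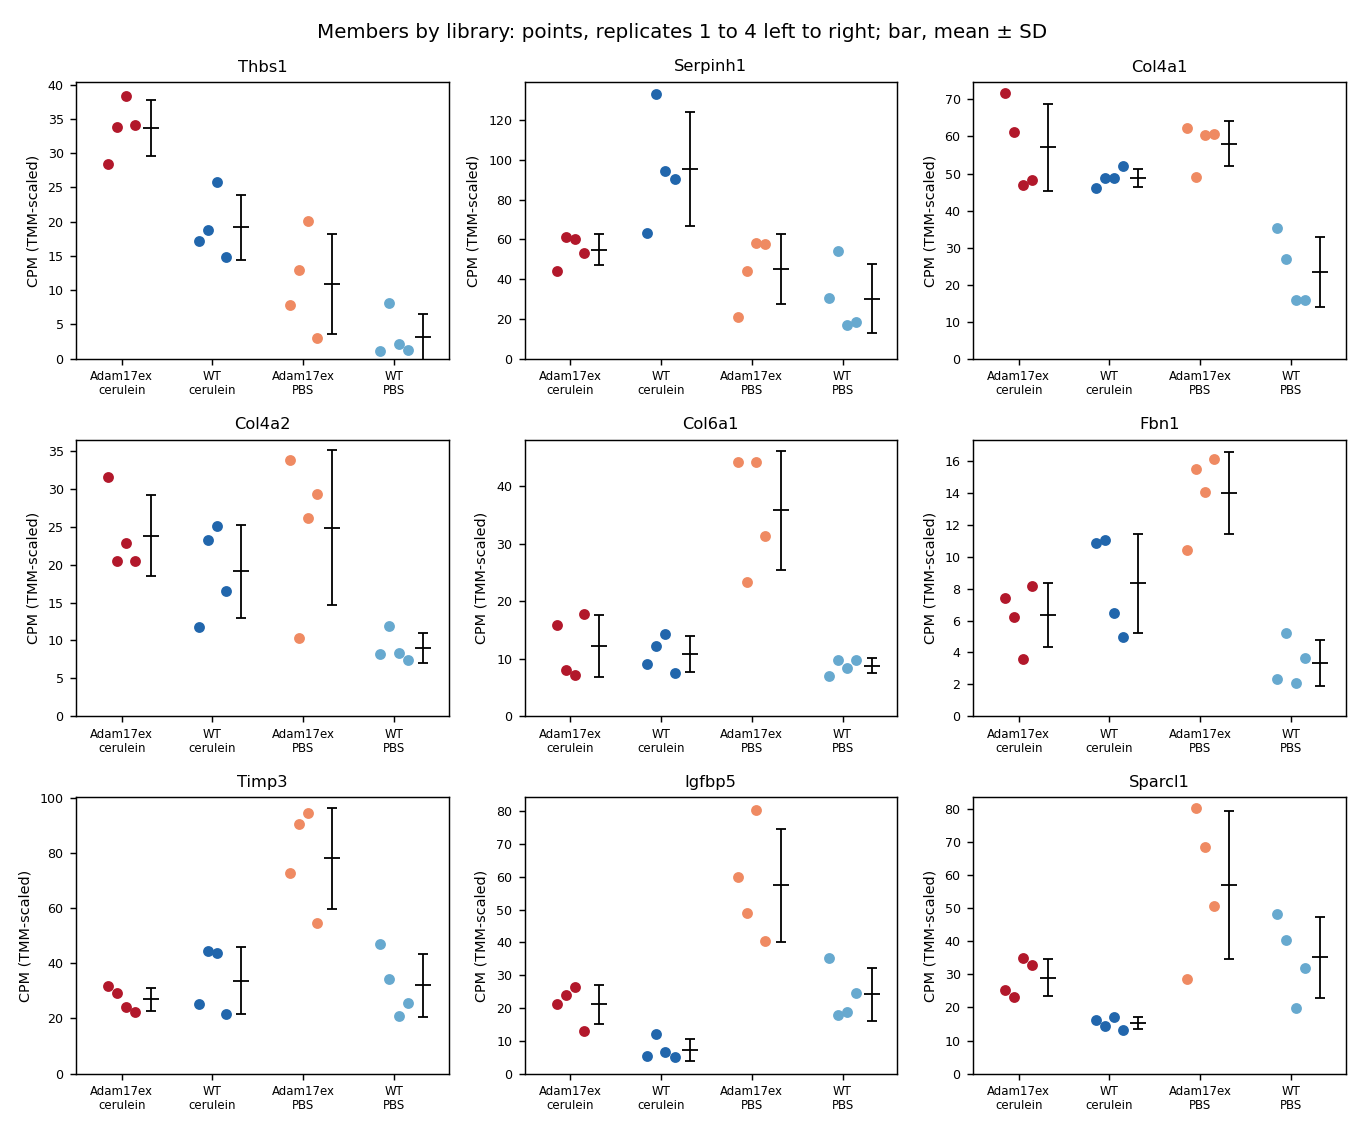
CPM in each library for 9 members (points, replicates 1 to 4 from left to right; bars, mean ± SD, n = 4 each) in Adam17ex cerulein, WT cerulein, Adam17ex PBS and WT PBS groups. Thbs1 is highest in both cerulein groups, Serpinh1 in WT cerulein, and Col6a1, Fbn1 and Timp3 in Adam17ex PBS, while Col4a1 is lowest in WT PBS.

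Of the pericyte, smooth muscle and stellate cell genes 3 of 8 could be tested, and 3 of 3 fell with cerulein in Adam17ex mice, with a median of -1.04, against 0 of 3 and a median of -0.44 in WT mice. The difference between these responses was called for 0 of 3. Without Adam17ex PBS replicate 3 the Adam17ex values were -0.77 for Rgs5, -0.54 for Gsn and -0.91 for Vim, and no call was kept (edgeR adjusted p = 0.0502, 0.0541 and 0.0682). Rgs5 (chromosome 1, 169655501 to 169695813, plus strand), a G protein regulator and a common pericyte marker, had 31.6, 24.0, 43.2 and 38.8 CPM in Adam17ex cerulein libraries, against 33.8, 95.5, 92.4 and 62.6 CPM in Adam17ex PBS libraries. In WT mice it had 20.8, 13.3, 25.1 and 21.5 CPM under cerulein, against 28.2, 26.1, 25.2 and 39.2 CPM under PBS. The WT groups were separate by a narrow gap, and replicate 1 of Adam17ex PBS lay among the cerulein libraries.

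Rgs5 fell, at -1.04 ± 0.26 in Adam17ex mice (edgeR adjusted p = 0.00486) and was at -0.48 ± 0.29 in WT mice (edgeR adjusted p = 0.193). Under PBS it was higher in Adam17ex mice by 1.32 ± 0.29 (edgeR adjusted p = 0.0298). Gsn (chromosome 2, 35256380 to 35307892, plus strand), of the actin-severing protein gelsolin and the most counted member with 3213 UMIs, had 179, 179.5, 205 and 217 CPM in Adam17ex cerulein libraries, against 226, 361, 414 and 333 CPM in Adam17ex PBS libraries. In WT mice Gsn had 166, 222, 193 and 184 CPM under cerulein, against 207, 185, 117 and 218 CPM under PBS. The Adam17ex PBS group again lay above all other libraries.

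Gsn fell, at -0.77 ± 0.20 in Adam17ex mice (edgeR adjusted p = 0.00507), was at 0.10 ± 0.20 in WT mice (edgeR adjusted p = 0.708), and was higher in Adam17ex mice under PBS by 0.94 ± 0.21 (edgeR adjusted p = 0.0331). The Gsn call for genotype under PBS was kept in 13 of 27 alternative settings. Vim (chromosome 2, 13573927 to 13582826, plus strand), of the intermediate filament vimentin found in mesenchymal and many immune cells, had 45.4, 19.6, 52.8 and 30.7 CPM in Adam17ex cerulein libraries, against 44.2, 72.3, 177 and 100.0 CPM in Adam17ex PBS libraries. In WT mice Vim had 22.6, 29.9, 38.7 and 20.7 CPM under cerulein, against 37.6, 63.3, 17.8 and 29.4 CPM under PBS. The groups overlapped in both genotypes. Vim fell in Adam17ex mice, at -1.46 ± 0.37 (edgeR adjusted p = 0.00476) and was at -0.44 ± 0.39 in WT mice (edgeR adjusted p = 0.390).

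The 13 members too low to test had 41 to 124 UMIs each over all 16 libraries. They include the markers most often used for activated stellate cells and pericytes. Acta2, of smooth muscle actin, had 32 UMIs in Adam17ex cerulein, 38 in Adam17ex PBS, 17 in WT cerulein and 37 in WT PBS libraries. Tagln, of the smooth muscle protein transgelin, had 20, 36, 21 and 31 UMIs in those groups, and the intermediate filament gene Des had 7, 13, 9 and 12 UMIs. The platelet-derived growth factor receptor genes Pdgfra and Pdgfrb had 35, 22, 30 and 26, and 20, 17, 39 and 24 UMIs in the same order. These totals are not scaled for depth, and the shallow libraries were in Adam17ex PBS. In the same order, mean CPM was 8.03, 16.7, 3.59 and 9.50 for Acta2 and 4.30, 16.1, 4.51 and 7.14 for Tagln. Des averaged 1.56, 4.78, 2.02 and 3.01 CPM, Pdgfra 7.83, 10.9, 6.67 and 6.86 CPM, and Pdgfrb 5.06, 8.02, 8.49 and 6.29 CPM.

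In a fit with no filter on low counts, Col15a1, Col5a1, Acta2 and Tagln were called in at least 1 comparison. The share of all genes called in that fit is not given here, so these calls are not set against a background. Col15a1, a basement membrane collagen gene with 22 UMIs in Adam17ex cerulein, 53 in Adam17ex PBS, 23 in WT cerulein and 18 in WT PBS libraries, had log2 fold changes of -2.01 ± 0.43 for cerulein in Adam17ex mice (edgeR adjusted p = 9.29e-05), 2.34 ± 0.47 for genotype under PBS (edgeR adjusted p = 0.000341) and -2.30 ± 0.67 for the interaction (edgeR adjusted p = 0.0300). Col5a1 was at 2.98 ± 0.68 for genotype under PBS (edgeR adjusted p = 0.00270), from 24 UMIs in Adam17ex and 5 UMIs in WT libraries. Acta2 was lower after cerulein in WT mice, at -1.42 ± 0.47 (edgeR adjusted p = 0.0214), and Tagln in Adam17ex mice, at -1.65 ± 0.46 (edgeR adjusted p = 0.00571). Col6a3, Col18a1, Lama4, Lamb2, Eln, Postn, Pdgfra, Pdgfrb and Des were not called there.

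**Figure D3:**
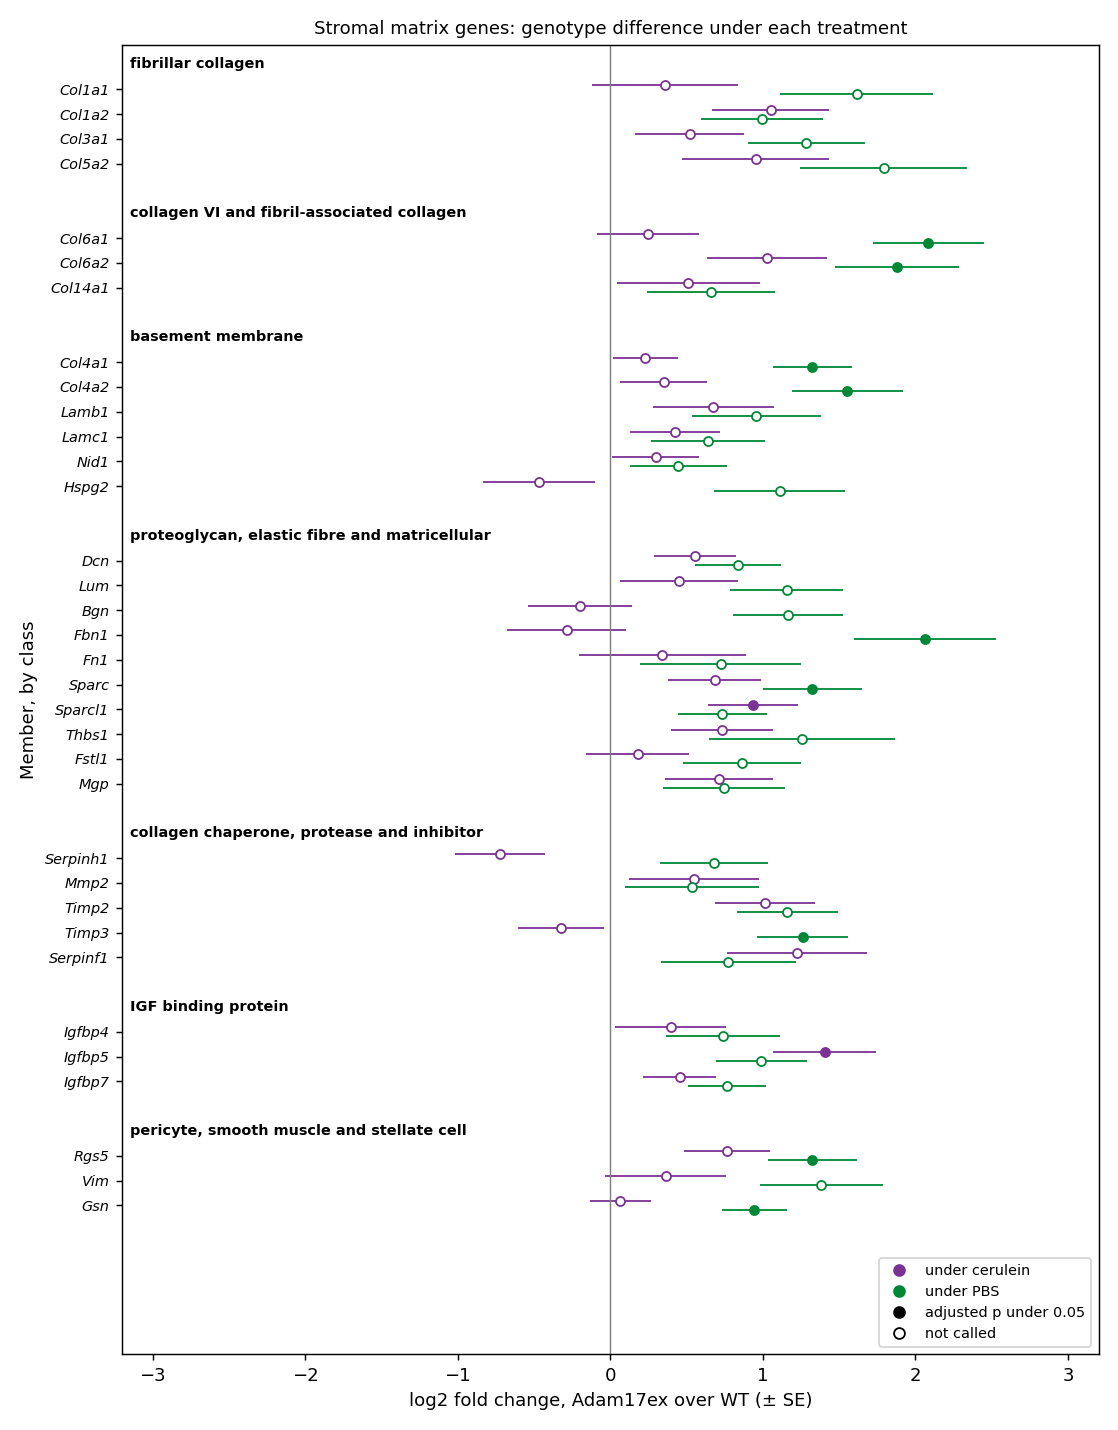
Log2 fold change of Adam17ex over WT (± SE, edgeR) for the 34 tested members, by class, under cerulein (purple) and under PBS (green); filled points passed an adjusted p of 0.05. All 34 points under PBS and 29 of 34 under cerulein lie above 0.

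Under PBS the genotype difference was positive for all 34 tested members and ranged from 0.45 to 2.08 on the log2 scale. A low-count member could pass the count filter through the group where it was high. With no filter, 45 of the 47 members were positive and 2 negative, Col18a1 at -0.12 and Pdgfrb at -0.23. In Adam17ex PBS replicates 1 to 4, 13, 25, 33 and 27 of the 34 members lay above the highest WT PBS library, that is 38.2%, 73.5%, 97.1% and 79.4%, whereas 31.3%, 30.1%, 31.1% and 22.4% of all tested genes did. Replicate 4, with 1009634 UMIs and an ordinary ribosomal share, was among the high libraries. Counts of calls depended on the other 3. Without Adam17ex PBS replicates 1 to 3, the log2 fold changes of the 9 members called with all libraries lay between 0.76 and 2.17. Those 9 were picked by calls that also used replicate 4. Over the 42 members tested without replicates 1 to 3 the median was 0.87, with 39 positive and 3 negative. In that fit the lone Adam17ex PBS library is assumed to vary like the other groups.

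Without Adam17ex PBS replicate 3 alone, 2 members were called higher under PBS, Col6a1 and Col4a1. Leaving out WT PBS replicate 3 or 4 gave 1 and 2 calls, and a fit to the 8 PBS libraries alone gave 0. The count of members lower after cerulein in Adam17ex mice was 4 without Adam17ex PBS replicate 3 and 2 without replicates 1 to 3, against 17 with all libraries. Without replicate 3 the members still called for cerulein in Adam17ex mice were Col6a1, Timp3, Igfbp5 and Lum (lower) and Thbs1 (higher). The 4 interaction calls became 2 without Adam17ex PBS replicate 3, which left Fbn1 at -2.33 and Timp3 at -1.46 called, and 0 without replicates 1 to 3.

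All members together summed to 1364, 1290.3, 1662 and 1368 CPM in Adam17ex cerulein, 1633, 2236, 3665 and 2359.6 CPM in Adam17ex PBS, 888, 1301, 1248 and 926 CPM in WT cerulein, and 1443.4, 1494, 737 and 1059 CPM in WT PBS libraries. Adam17ex PBS replicate 3 was the highest. The 10 macrophage markers summed to 1093 CPM in that library, against 85.0 to 443.8 CPM in the other 15, where the rest of its group had 164 to 363 CPM. Digestive enzyme genes took 30.7% of UMIs in that library, against 39.2% to 40.4% in the rest of its group and 38.4% to 41.0% in WT PBS libraries. The 9 adipocyte markers summed there to 1149 CPM, with 229 to 933 CPM in the rest of its group and 166 to 635 CPM in WT PBS libraries.

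The 12 endothelial markers summed to 211, 163, 271 and 152 CPM in Adam17ex PBS and to 116, 101, 117 and 100.5 CPM in WT PBS libraries, with no overlap. Of 7 tested endothelial markers 7 were positive for genotype under PBS and 0 were called (2 of 7 fell with cerulein in each genotype), and Cldn5 was at 0 in WT cerulein libraries. Of 8 tested macrophage markers 6 were positive and 0 called, and of 6 tested adipocyte markers 5 were positive and 0 called, with Plin1 and Lep at 0 in WT cerulein libraries. With cerulein 4 of 8 macrophage markers, 5 of 6 adipocyte markers and 7 of 8 islet markers fell in Adam17ex mice, and 1 of 8, 6 of 6 and 0 of 8 in WT mice. Over all genes 16.2% fell with cerulein in Adam17ex and 21.3% in WT mice, and 0.631% were higher for genotype under PBS. The 8 islet markers summed to 5070 to 22086 CPM in Adam17ex PBS and 4263 to 13230 CPM in WT PBS libraries. For genotype under PBS 7 of these 8 were positive and 0 called, with a median of 0.98. The part of these cell types in the members' values was not tested.

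Within WT PBS, replicates 1 and 2 had B and plasma cell markers at 594 and 978 CPM and replicates 3 and 4 at 24.1 and 36.8 CPM. Of these 7 markers Cd79a, Cd79b and Ms4a1 were at 0 in WT cerulein libraries. The members called lower after cerulein in WT mice numbered 1, and those called higher 6, when only WT PBS replicates 3 and 4 stood for their group, a setting added after the values were seen. B and plasma cell markers were also 735 and 459 CPM in Adam17ex PBS replicates 3 and 4, against 28.6 and 145 CPM in replicates 1 and 2. Their part was not tested.

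**Figure D4:**
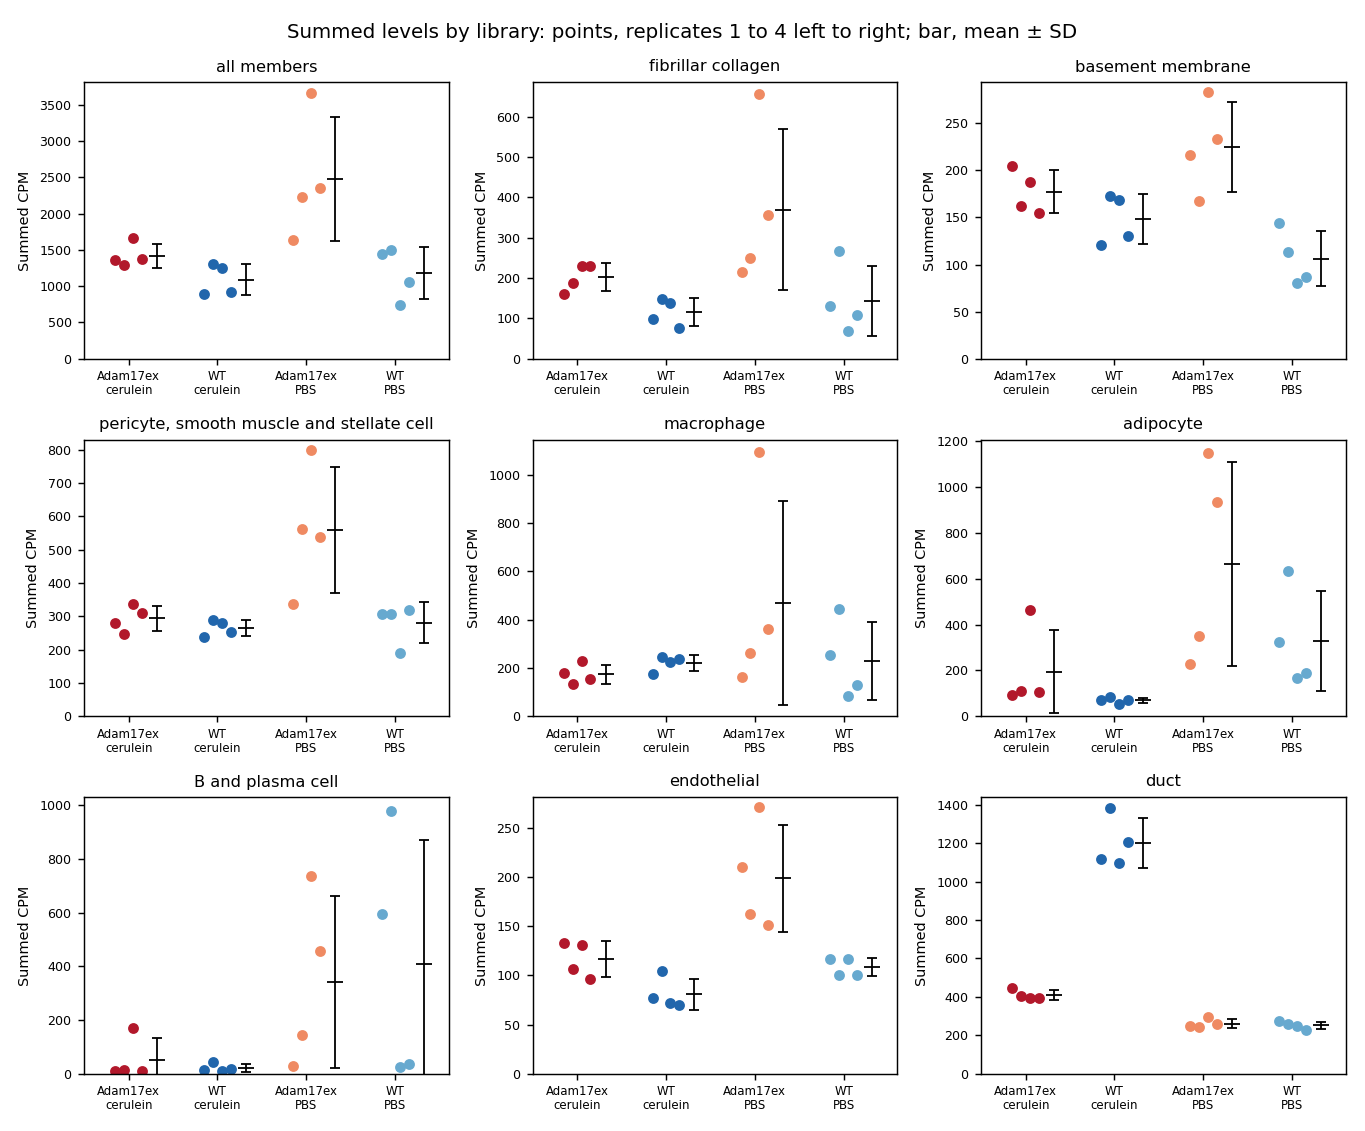
Summed CPM by library (points, replicates 1 to 4 from left to right; bars, mean ± SD, n = 4 each) of all members, 3 classes of members and 5 lists of cell type markers. The members' sum is highest in Adam17ex PBS, at 1633 to 3665 CPM, and the endothelial sum of every Adam17ex PBS library is above every WT library; the macrophage sum stands apart only in Adam17ex PBS replicate 3, at 1093 CPM, and duct markers are highest in WT cerulein.

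Of 45 listed genes of TGF-beta signalling and matrix enzymes 26 were tested, and 5 rose and 3 fell with cerulein in Adam17ex mice, against 13 and 2 in WT mice. In Adam17ex mice that is 19.2% and 11.5%, against 14.1% and 16.2% of all genes. In WT mice it is 50% and 7.69%, against 19.8% and 21.3% of all genes. Tgif1, a repressor of TGF-beta target genes, rose by 2.58 ± 0.42 in Adam17ex and 2.49 ± 0.34 in WT mice, and Pmepa1, a feedback inhibitor of the pathway, by 1.28 ± 0.28 and 1.89 ± 0.31. The lysyl hydroxylase gene Plod3 rose by 1.31 ± 0.24 and 1.39 ± 0.23, and the stromelysin gene Mmp3 by 3.61 ± 0.76 and 2.58 ± 0.56. The signal transducer gene Smad3 rose in WT mice by 2.16 ± 0.36 and was lower in Adam17ex than in WT mice under cerulein, at -1.16 ± 0.31 (edgeR adjusted p = 0.0193).

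Ppib, the gene of the collagen folding enzyme cyclophilin B, fell with cerulein in both genotypes, at -0.62 ± 0.20 in Adam17ex and -1.41 ± 0.20 in WT mice. In WT mice P4hb, of the prolyl hydroxylase subunit protein disulphide isomerase, fell, at -1.29 ± 0.19, and in Adam17ex mice it was at -0.35 ± 0.18. Both proteins serve the endoplasmic reticulum of secretory cells in general. P4hb was higher in Adam17ex than in WT mice under cerulein, by 0.73 ± 0.19 (edgeR adjusted p = 0.0126), with an interaction of 0.94 ± 0.26 (edgeR adjusted p = 0.0357). Tgfbi, a TGF-beta-induced matrix protein gene, had an interaction of -3.23 ± 0.83 (edgeR adjusted p = 0.0230), with up to 64.3 CPM in an Adam17ex PBS library. Under PBS 0 of the 26 genes were called between the genotypes, where 1.36% of all genes were.

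Of 27 matrix receptor and adhesion genes 21 were tested, and 9 rose and 1 fell with cerulein in Adam17ex mice, against 12 and 2 in WT mice. In Adam17ex mice that is 42.9% and 4.76%, against 14.1% and 16.2% of all genes. In WT mice it is 57.1% and 9.52%, against 19.8% and 21.3% of all genes. The syndecan gene Sdc1 rose by 3.16 ± 0.22 in Adam17ex and 3.58 ± 0.18 in WT mice, the collagen receptor gene Ddr1 by 2.11 ± 0.27 and 2.15 ± 0.25, and the focal adhesion gene Zyx by 1.21 ± 0.23 and 3.65 ± 0.24. Under cerulein 4 of the 21 were lower in Adam17ex than in WT mice and 0 higher, namely Zyx at -1.14 ± 0.19, Itgb4 at -1.07 ± 0.25, Itga3 at -0.93 ± 0.26 and Sdc1 at -0.64 ± 0.15. These 4 make 19% of the 21, against 3.85% of all genes. Itgb4 and Itga3 encode integrin subunits of laminin receptors. Under PBS Zyx was higher in Adam17ex mice, at 1.31 ± 0.30, and the dystroglycan gene Dag1 lower, at -1.16 ± 0.21. For the interaction 1 gene was called higher and 2 lower, that is 4.76% and 9.52%, against 3.75% and 2.27% of all genes. Duct markers, which are epithelial, were 409 ± 23.9 CPM in Adam17ex and 1199 ± 130.2 CPM in WT libraries under cerulein (SD, n = 4 each). Of 5 tested 5 were lower in Adam17ex, against 3.85% of all genes. The part of duct cells in the receptor values was not tested.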

How the data were processed

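Pancreatic RNA of 16 mice was measured, 4 per group. The authors deposited whole-number UMI counts per gene with no normalization, and per the labels' protocols 30 ng of RNA was primed on the poly(A) tail, with a 10 bp UMI and a sense read of 101 bp. Per the submitters' processing notes, GRCm38 and mm10 were the genome builds, with limma 3.50.0, edgeR 3.36.0 and R 4.1.2 among the tools. Which aligner, counter and UMI collapsing were used is not given in the sources used. The read runs in the sense direction, but whether counting used strand is not given in those sources, and 18 of the 47 members overlap a gene on the other strand in GENCODE M21.

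Counts were fitted in R 4.3.3 with edgeR 4.0.16 (glmQLFit, glmQLFTest) and limma 3.58.1, with 1 coefficient per group and sex as covariate over 16 libraries and 11 residual degrees of freedom. filterByExpr with a minimum count of 10 kept 8236 of 24019 genes. Factors were TMM, p-values were Benjamini-Hochberg adjusted over all genes kept, and calls were made under 0.05. Each SE was derived from the edgeR test, as the absolute log2 fold change divided by the square root of the F statistic. The scripts were tested on simulated data. CPM divides each count by the library total over tested genes times its TMM factor. Members and gene lists were chosen with earlier results of these data known. Values in every library were given for up to 3 members per class with the smallest p, others by group, and 4 genes per pathway list and comparison. The plot of single libraries also shows Sparcl1, chosen after its values were seen.

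Libraries within a group differed beyond sampling noise (24 pairs had chi-square values of 3.06 to 9.50 times their degrees of freedom), so each counted as 1 replicate. The labels do not say that equal replicate numbers mark a shared litter or day. Alternatives were RLE factors, TMM without digestive enzymes, no filter, DESeq2 1.42.0, no sex covariate, only the groups compared, a replicate block, thinning to equal depth, leaving out each library and leaving out the 3 shallow ones. A pair added after seeing the data left out WT PBS replicates 1 and 2, without or with Adam17ex PBS replicate 3. Promoter sequences are from RefSeq on GRCm38.p6.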

Additional observations from a re-analysis of the deposited data

Results flagged for a closer look

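In 3 of 136 groups of 4 libraries, 1 library stood apart from the other 3 by a gap above Dixon's 95% critical value for its share of the group's range. Chance gives about 1 in 20, or 6.8 of 136. Col14a1 was 16.8 CPM in Adam17ex cerulein replicate 3, against 8.00 to 9.49 CPM in the others. Col4a1 was 49.1 CPM in Adam17ex PBS replicate 2, against 60.3 to 62.4 CPM. Thbs1 was 8.19 CPM in WT PBS replicate 2, against 1.18 to 2.10 CPM.

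The cerulein response differed between the genotypes (Adam17ex minus WT, log2 scale, edgeR interaction term) for Col6a1 by -1.84, for Timp3 by -1.58, for Fbn1 by -2.35 and for Col4a1 by -1.10. Each sign was kept in all alternatives run for it, and the call in 17 of 26 for Col6a1, 23 of 26 for Timp3, 18 of 25 for Fbn1 and 11 of 26 for Col4a1.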

How the results depend on the processing

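Thinning every library to the shallowest depth left 2 members higher and 1 lower after cerulein in WT, 0 higher and 8 lower in Adam17ex, 1 higher for genotype under PBS, 0 higher for genotype under cerulein and 0 lower for the interaction. Without the 3 shallow Adam17ex PBS libraries, 2 were lower after cerulein in Adam17ex, 0 higher for genotype under PBS, 4 higher for genotype under cerulein and 0 lower for the interaction. With no filter the counts were 8 lower after cerulein in WT, 17 higher for genotype under PBS, and 4 higher and 1 lower for genotype under cerulein. Fitting only the groups compared gave 0 higher for genotype under PBS, and 6 higher and 1 lower under cerulein. Without the sex covariate 17 were higher under PBS. RLE factors, TMM without enzymes and DESeq2 each gave 1 higher for genotype under cerulein. With WT PBS replicates 3 and 4 as their group, 1 was lower after cerulein in WT and 4 were higher for genotype under cerulein, and with Adam17ex PBS replicate 3 left out too, 1 and 5. Sparc then turned positive after cerulein in WT, at 0.93 and 0.96 (edgeR adjusted p = 0.0258 and 0.00666; -0.06 with all libraries). The cause was not tested. Shares over all genes are not set beside the counts of any alternative setting. Whether a changed count is particular to the members is thus not shown.

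Leaving out 1 library at a time, counts ranged from 4 to 6 (higher) and 2 to 9 (lower) for cerulein in WT, 1 to 1 and 4 to 21 for cerulein in Adam17ex, 0 to 4 higher for genotype under cerulein, 1 to 10 higher for genotype under PBS, and 1 to 7 lower for the interaction. Genotype under PBS had 1 or 2 calls without WT PBS replicate 3 or 4, 2 without Adam17ex PBS replicate 3, 4 without its replicate 2, and 5 without its replicate 4, Adam17ex cerulein replicate 3 or WT PBS replicate 1. Genotype under cerulein had 0 without WT cerulein replicate 1, 4 without Adam17ex PBS replicate 3, and 1 without Adam17ex cerulein replicate 2 or 3, Adam17ex PBS replicate 2, WT cerulein replicate 4 or WT PBS replicate 4. The members lower after cerulein numbered 4 in Adam17ex without Adam17ex PBS replicate 3, and in WT 2 without WT PBS replicate 1 or 2, 9 without its replicate 3 and 7 without WT cerulein replicate 3. The interaction had 1 without Adam17ex cerulein replicate 2 or WT cerulein replicate 2 or 3, 2 without Adam17ex cerulein replicate 3 or Adam17ex PBS replicate 3 or 4, and 7 without WT PBS replicate 2. With the replicate number as a block, 12 were higher for genotype under PBS and 5 lower for the interaction, and no other count changed. Over all groups, 5 of 24 same-numbered pairs had a correlation of deviations over 0.1 (-0.224 to 0.240), and 6 of 16 libraries correlated best with their own number. Between Adam17ex PBS and Adam17ex cerulein, replicates 1 to 4 had 0.162, 5.4e-05, 0.122 and 0.240, while differently numbered pairs had at most 0.0822. Whether equal numbers mark pairs there is not known. Depth limits the 13 untested members most, since 1 UMI was worth up to 2.60 CPM.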
